A study of Mus musculus with 24 samples.

Results

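The genes described here are 10 markers of microglia and of the first complement component in mouse nucleus accumbens (NAc): Aif1, Cx3cr1, P2ry12, Tmem119, Csf1r, C1qa, C1qb, C1qc, Trem2 and Itgam. They were found by symbol among the 38293 Ensembl genes of the mRNA count table, and all 10 were among the 18593 genes with enough reads to be tested. C57BL/6J mice, labelled as 9 weeks old, were either left nonstressed or exposed to Subchronic Variable Stress (SCVS), a short series of varied stressors. The groups were nonstressed males (NSM), stressed males (SM), nonstressed females (NSF) and stressed females (SF), with 3 mRNA libraries each and 12 in all, and every female pool came from mice in estrus or proestrus. Each library was 1 pool of 10 NAc punches from 5 mice, so that the spread between libraries is the spread between pools and not between single mice.

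Microglia are the resident macrophages of the brain. They survive through the receptor Csf1r, sense the neuronal chemokine fractalkine through Cx3cr1 and released nucleotides through P2ry12, and take up lipids and debris with the help of Trem2. C1q, assembled from the A, B and C chains encoded by C1qa, C1qb and C1qc, starts the classical complement cascade, and in the brain microglia make most of it. Tagging of synapses by C1q and complement component C3, followed by engulfment through the receptor whose alpha chain is Itgam (CD11b), is a known route of synapse removal. Aif1 (Iba1) is an actin-binding protein used to stain microglia, and Tmem119 is a membrane protein used to tell microglia from other macrophages.

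In the annotation of build NCBIM37, which the count table follows, the C1q genes lay side by side on the minus strand of chromosome 4. C1qb spanned chr4:136436044-136442102, C1qc chr4:136445719-136448980 and C1qa chr4:136451832-136454718, so that the cluster covered 18.7 kb. Aif1 (chr17:35307936-35313013) and Trem2 (chr17:48485726-48493472) shared a chromosome without being neighbours. Cx3cr1 lay at chr9:119957811-119977400, Tmem119 at chr5:114243738-114250525 and Itgam at chr7:135206154-135271674. P2ry12 (chr3:59020193-59066753) lies within Med12l on the opposite strand, and Csf1r overlaps Hmgxb3 on the opposite strand. The library kit did not mark strand, so reads from the shared bases of these pairs cannot be told apart.

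Promoter sequences were available for 7 of the 10 genes in a RefSeq table of build GRCm38.p6, which differs from the build of the counts. They are shown for both genes that passed the study's thresholds in males (P2ry12 and Aif1) and for a pair of neighbouring C1q genes (C1qb and C1qc). Each runs 5′ to 3′ from 250 bases before the gene's start to 50 after it, and capitals mark GAGGAA on either strand (TTCCTC on the other), the core of the site bound by PU.1, a transcription factor of macrophages.
P2ry12 (chr3:59262936-59263235, minus strand): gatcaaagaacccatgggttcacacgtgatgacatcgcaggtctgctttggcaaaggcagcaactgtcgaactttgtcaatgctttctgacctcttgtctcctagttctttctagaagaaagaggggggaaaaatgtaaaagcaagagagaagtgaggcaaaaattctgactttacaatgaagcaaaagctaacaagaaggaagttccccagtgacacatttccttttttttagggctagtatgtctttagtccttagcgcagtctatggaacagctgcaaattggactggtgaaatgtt
Aif1 (chr17:35176003-35176302, minus strand): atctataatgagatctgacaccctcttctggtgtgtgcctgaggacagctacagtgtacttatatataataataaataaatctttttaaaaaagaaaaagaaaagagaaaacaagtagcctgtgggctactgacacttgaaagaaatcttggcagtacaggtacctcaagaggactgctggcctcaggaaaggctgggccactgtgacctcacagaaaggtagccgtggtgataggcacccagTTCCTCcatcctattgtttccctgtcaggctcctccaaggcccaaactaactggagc
C1qb (chr4:136886151-136886450, minus strand): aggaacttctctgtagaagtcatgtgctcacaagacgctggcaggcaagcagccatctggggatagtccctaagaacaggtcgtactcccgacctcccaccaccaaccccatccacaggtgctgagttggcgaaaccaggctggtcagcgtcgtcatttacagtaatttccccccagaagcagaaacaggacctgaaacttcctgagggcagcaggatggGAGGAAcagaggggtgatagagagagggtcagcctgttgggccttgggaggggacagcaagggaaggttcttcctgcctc
C1qc (chr4:136892865-136893164, minus strand): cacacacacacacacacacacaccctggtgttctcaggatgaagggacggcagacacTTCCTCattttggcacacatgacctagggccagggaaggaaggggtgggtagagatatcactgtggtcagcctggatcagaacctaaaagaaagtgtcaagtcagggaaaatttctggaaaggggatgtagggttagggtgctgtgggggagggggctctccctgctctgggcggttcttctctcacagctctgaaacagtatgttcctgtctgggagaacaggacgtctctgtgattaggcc
GAGGAA was found in 5 of the 7 promoters (Aif1, C1qb, C1qc, Trem2 and Itgam) and not in those of Cx3cr1 and P2ry12, whereas 28.3% of all 32851 promoters of the table held it. The longer GAGGAAGT, which contains the first motif, was found in the C1qc promoter and in 3.2% of all promoters. These are matches of letters and not measured binding.

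All 10 genes were well covered. Raw counts per library ran from 154 for Aif1 in an NSF library to 6551 for Csf1r in another. Levels between genes were compared as RPKM, reads scaled to library size and to the length in kilobases of the longest coding transcript, averaged over the 12 libraries. C1qb (33.1 RPKM, range 28.3 to 38.3) and C1qa (31.2, range 26.8 to 35.3) were highest. C1qc (24.9, range 20.7 to 31.5) and Csf1r (22.8, range 20.4 to 25.3) followed, then P2ry12 (17.1, range 14.1 to 21.4) and Cx3cr1 (16.1, range 14.0 to 19.9). Trem2 (9.97, range 8.77 to 11.9) and Tmem119 (9.08, range 7.40 to 10.8) came next, and Itgam (6.10, range 5.15 to 6.86) and Aif1 (4.90, range 3.72 to 6.29) were lowest. Within each of these pairs the ranges over libraries overlapped. The order depended on the length used: with all merged exons as the length, C1qc was at 15.5 RPKM and Trem2 at 2.19 RPKM, the lowest of the 10.

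Library totals ran from 41076780 to 60867747 reads. Striatal neuron markers (Drd1a, Drd2, Penk and 7 others), which check the tissue label, summed to between 4683 and 5899 CPM (counts scaled to a common library size, with TMM factors) in every library. Markers of cortical neurons summed to between 101 and 124 CPM in NSM, 177 and 303 in SM, 127 and 451 in NSF and 148 and 230 in SF libraries, so that the male groups did not overlap. NSM replicate 1 stood apart in the choroid plexus marker Ttr, at 66.1 CPM against at most 2.62 CPM in the other libraries. Red blood cell genes summed to between 21.9 and 27.5 CPM in NSM, 38.5 and 47.3 in SM, 29.8 and 39.0 in NSF and 28.8 and 32.0 in SF libraries. Of 12 markers of blood leukocytes 10 had too few reads to be tested, and S100a8 and S100a9 had at most 6 and 7 reads in any library. The libraries also differed in how counts depended on the GC content of transcripts. Genes with a mean above 2 CPM and a known transcript GC content were split into 10 equal bins of GC content. The median deviation of the top bin minus that of the bottom bin ran from -0.36 (log2) in SM replicate 2 to 0.25 in NSF replicate 3. GC content of the 10 genes ran from 39.1% (P2ry12) to 59.5% (C1qa).

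Stressed males were compared with nonstressed males to ask how SCVS acts on these genes in the male NAc. Levels of the purine receptor P2ry12, the fractalkine receptor Cx3cr1 and the cytoskeletal marker Aif1 were 1.23 to 1.31-fold the NSM level in SM, whereas C1qa, C1qc, Trem2 and Tmem119 stayed within the spread between pools. Following the study, a gene was called where the unadjusted p was under 0.05 and the level differed 1.3-fold or more in either direction.

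P2ry12 was measured at 37.1, 37.1 and 33.0 CPM in NSM and at 49.5, 50.01 and 41.1 CPM in SM libraries. The groups did not overlap, although SM replicate 3 sat closer to the NSM libraries than to the other SM libraries. The mean rose from 35.8 ± 2.35 to 46.9 ± 5.01 CPM (SD, n = 3), a log2 fold change of 0.39 ± 0.081 (SE) with a 95% confidence interval of 0.21 to 0.56. By limma over all tested genes the adjusted p was 0.0245, and the fold of 1.31 was just past the threshold.

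Cx3cr1 showed the same ranking of libraries, with 58.4, 56.2 and 52.4 CPM in NSM and 70.3, 74.3 and 60.7 CPM in SM. Its groups did not overlap either, and SM replicate 3 was again the lowest of its group. The log2 fold change was 0.29 ± 0.070 (SE), with an adjusted p of 0.0405, but the fold of 1.23 lay under the threshold and Cx3cr1 was not called. Its adjusted p was 0.0669 with genes of at least 1 read kept, 0.0866 with the 6 male libraries alone and 0.0535 without SF replicate 3.

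Aif1, the gene with the fewest reads, was at 4.25, 3.25 and 4.16 CPM in NSM and at 4.98, 5.51 and 4.67 CPM in SM. The groups did not overlap, and NSM replicate 2 stood below the other male libraries. The log2 fold change of 0.38 ± 0.14 (SE), a fold of 1.302, was called at an unadjusted p of 0.0178 by limma, while the adjusted p was 0.147.

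Csf1r was the other receptor whose groups did not overlap, with 106, 100.1 and 96.1 CPM in NSM and 115, 113 and 107 CPM in SM. Its log2 fold change was 0.14 ± 0.056 (SE), with an unadjusted p of 0.0225 and an adjusted p of 0.162 by limma. Itgam, at 30.3, 29.2 and 24.8 CPM in NSM and 33.0, 32.2 and 28.05 CPM in SM, had a log2 fold change of 0.14 ± 0.080 (SE) and overlapping groups. Neither was called.

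Of the C1q chains, C1qb was at 35.5, 35.4 and 30.8 CPM in NSM and at 40.97, 38.2 and 35.8 CPM in SM, without overlap, with a log2 fold change of 0.18 ± 0.082 (SE), an unadjusted p of 0.0499 and an adjusted p of 0.233 by limma. C1qa ranged from 27.9 to 32.9 CPM in NSM and from 30.1 to 33.8 CPM in SM. C1qc ranged from 24.9 to 31.0 CPM in NSM and from 26.4 to 29.7 CPM in SM. Their log2 fold changes of 0.055 ± 0.078 and -0.033 ± 0.10 (SE) were smaller than their errors, and differences between the chains were not tested. The same held for the lipid receptor Trem2 (0.051 ± 0.085) and for Tmem119 (-0.057 ± 0.072), whose groups overlapped.

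**Figure D1:**
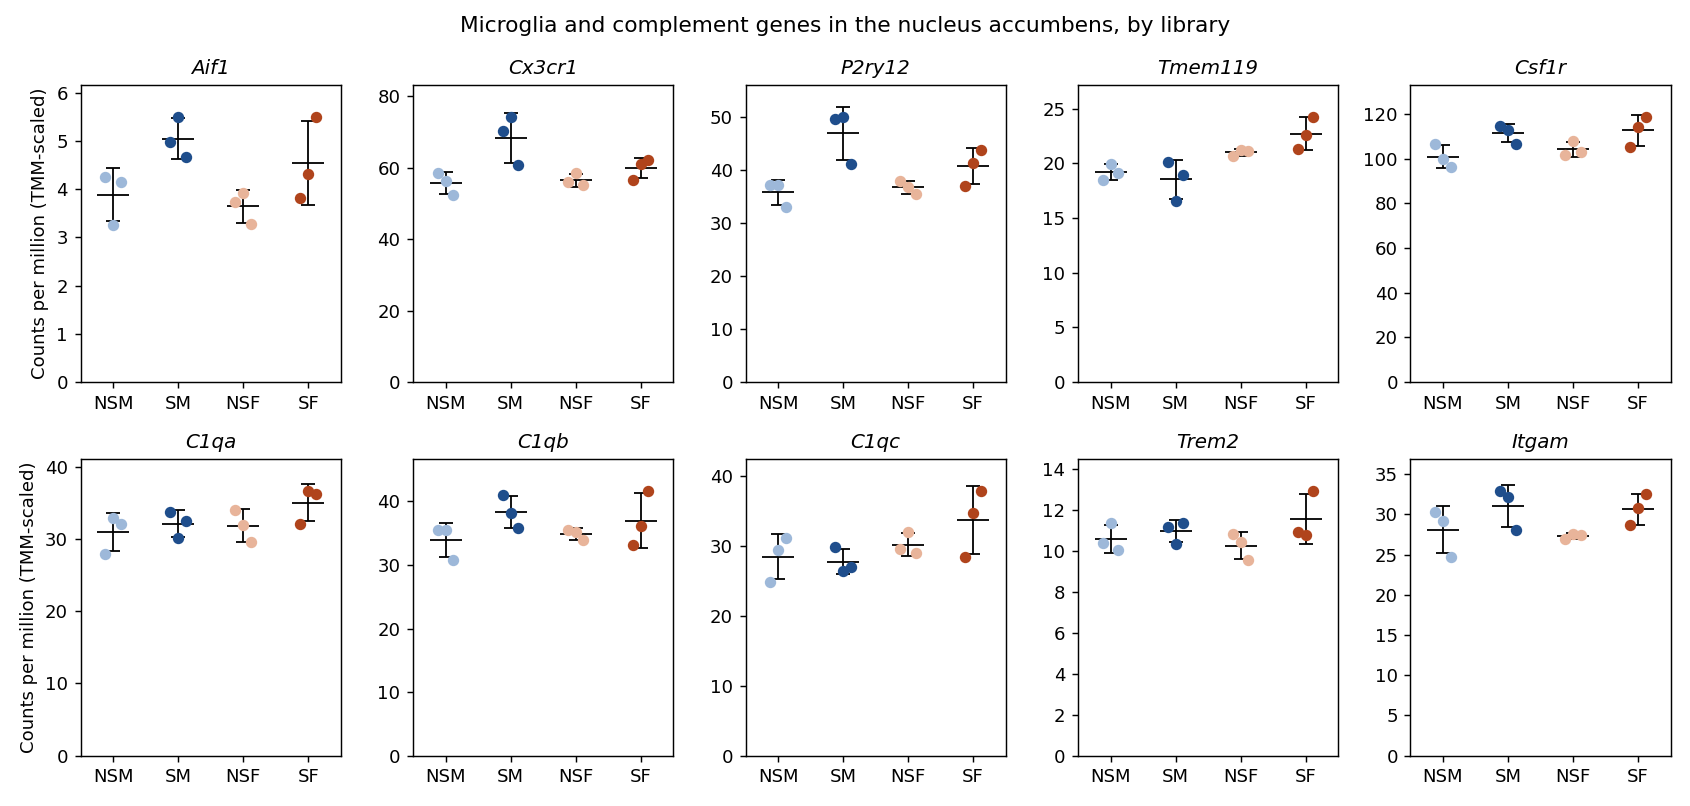
CPM (y axis, TMM-scaled, from 0) of each of the 10 genes in the 12 mRNA libraries, by group (x axis); points are libraries, black lines the mean and bars the SD of 3 libraries. For P2ry12 the 3 SM libraries lie between 41.1 and 50.01 CPM, above the 3 NSM libraries at 33.0 to 37.1, while C1qa and C1qc overlap between NSM and SM.

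In all, 2 of the 10 genes were called in males, both higher. Across all tested genes 6.44% were called and 2.36% were called higher. At an adjusted p under 0.05 there were 2 (P2ry12 and Cx3cr1), against 3.32% of all genes, and at an unadjusted p under 0.05 there were 5, all higher, against 9.93% of all genes that were higher at that level. Groups did not overlap for 5 genes, all higher in SM, as for 11.3% of all genes. Log2 fold changes were above 0 for 8 of 10 genes, with a median of 0.14, compared with 47.3% of all genes and a median of -0.012. The sum over the 10 genes was 354, 355 and 333 CPM in NSM and 408, 397 and 367 CPM in SM. In bulk tissue, a change in the number of microglia and a change in RNA per cell cannot be told apart.

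The calls sat near the thresholds. Both called folds were close to 1.3, and no gene was called without SM replicate 2 or when libraries were scaled by total reads alone, where P2ry12 and Cx3cr1 kept adjusted p values of 0.0216 and 0.0368 by limma. A single gene was called without NSM replicate 2 (P2ry12), NSM replicate 3 (Aif1) or SM replicate 1 (Aif1), and 3 were called without SM replicate 3 (Aif1, P2ry12 and Cx3cr1). Without NSM replicate 2, NSM replicate 3, SM replicate 1 or SM replicate 2 no gene kept an adjusted p under 0.05, and that of P2ry12 was 0.0515 to 0.121. Over these 4 fits the count of all genes at that threshold fell from 618 to between 79 and 182.

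In stressed against nonstressed females, all 10 genes had a log2 fold change above 0, but none was called. The values ran from 0.079 ± 0.082 (SE) for C1qb to 0.29 ± 0.14 for Aif1, with a median of 0.14 compared with -0.0039 over all genes, of which 48.4% were above 0. Of all genes 1.73% were called. None of the 10 reached an unadjusted p under 0.05 by limma, as 4.23% of all genes did, and no tested gene had an adjusted p under 0.05 by limma. By edgeR and by DESeq2, 1 of the 10 (Aif1) had an unadjusted p under 0.05, and none had an adjusted p under 0.05.

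Aif1 was at 3.74, 3.93 and 3.27 CPM in NSF and at 3.81, 4.32 and 5.51 CPM in SF, with overlap and an unadjusted p of 0.0619 by limma. P2ry12 was at 37.8, 36.8 and 35.4 CPM in NSF and at 37.04, 41.2 and 43.7 CPM in SF, and Cx3cr1 at 55.9, 58.6 and 55.1 against 56.6, 61.1 and 62.1 CPM. Their log2 fold changes were 0.15 ± 0.081 and 0.083 ± 0.070 (SE), and SF replicate 1 lay within the NSF range for both. Groups did not overlap for 2 genes, Tmem119 (20.6, 21.2 and 21.2 against 21.3, 22.6 and 24.3 CPM) and Itgam (26.9, 27.6 and 27.4 against 28.7, 30.8 and 32.5 CPM), a pattern that 4.9% of all genes showed in the upward direction. Log2 fold changes were 0.11 ± 0.069 for Tmem119 and 0.16 ± 0.080 for Itgam (SE).

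The C1q chains were each slightly above the NSF mean in SF, by 0.14 ± 0.077 for C1qa, 0.079 ± 0.082 for C1qb and 0.15 ± 0.10 for C1qc (log2, SE), and Trem2 and Csf1r by 0.16 ± 0.084 and 0.11 ± 0.056. The SF libraries were not alike. SF replicate 3 held the highest value of its group for 9 of the 10 genes and SF replicate 1 the lowest for 9 of 10, and the summed levels were 357, 392 and 416 CPM in SF against 357, 366 and 347 CPM in NSF. Without SF replicate 1, Aif1 was called (log2 fold change 0.41, adjusted p 0.921 by limma). Without SF replicate 3 the median fell to 0.076 and C1qb to -0.011.

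**Figure D2:**
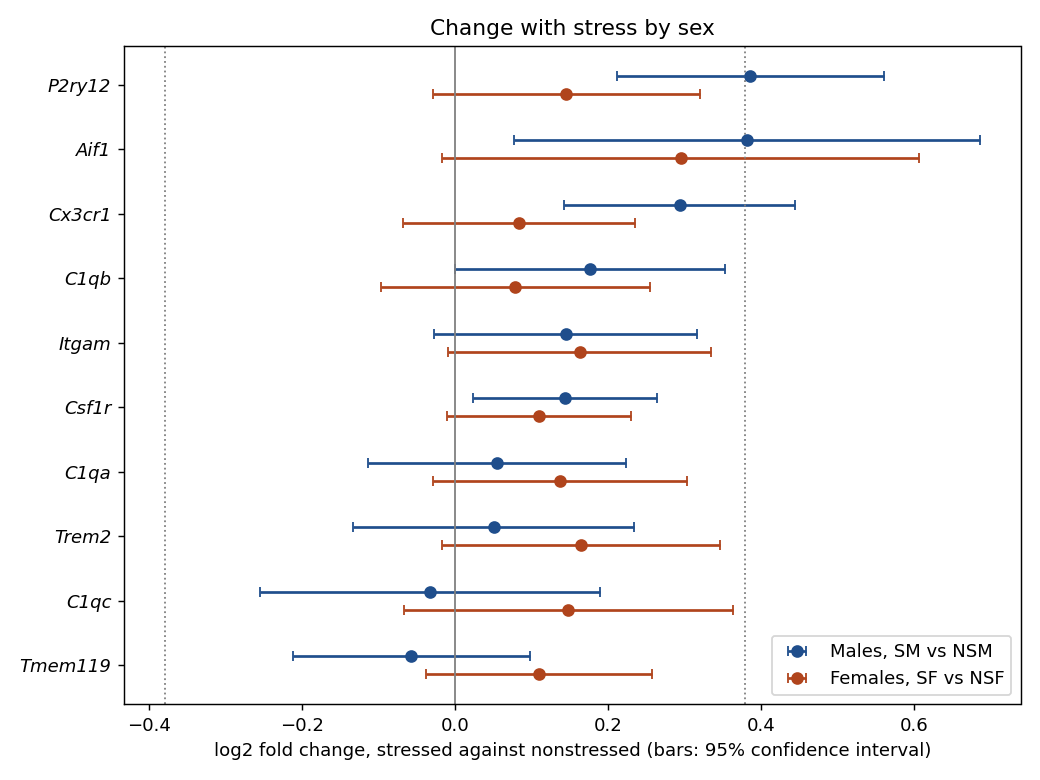
Log2 fold change with stress (x axis; bars are 95% confidence intervals) for each gene (y axis) in males (SM against NSM) and females (SF against NSF), 3 libraries per group; dotted lines mark a fold of 1.3 in either direction. All 10 female estimates lie above 0 with intervals that include 0, and the male intervals of P2ry12, Aif1, Cx3cr1, C1qb and Csf1r lie above 0.

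The difference between the sexes in the response to stress was tested directly as the sex-by-stress interaction. None of the 10 genes was called, against 4.42% of all genes, and none had an unadjusted p under 0.05 by limma, against 9.55%. DESeq2 gave 2 genes and edgeR 1 at that level, and neither gave an adjusted p under 0.05. The female minus male differences ran from -0.24 for P2ry12 (95% confidence interval -0.49 to 0.0065, unadjusted p 0.0555 by limma) and -0.21 for Cx3cr1 (-0.42 to 0.0034, unadjusted p 0.0533) to 0.17 for Tmem119 (-0.048 to 0.38) and 0.18 for C1qc (-0.13 to 0.49). The male changes of P2ry12 and Cx3cr1 were thus not shown to differ from the female values, and the intervals of the 10 genes reached 0.49 in the upward direction and -0.52 in the downward direction.

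Nonstressed females and males differed little in these genes. None was called, against 5.31% of all genes, and none had an unadjusted p under 0.05 by limma, edgeR or DESeq2, against 15.4% by limma. Log2 differences ran from -0.085 (Aif1) to 0.13 (Tmem119), and groups did not overlap for Tmem119 alone, as for 19.5% of all genes. Between stressed females and stressed males again none was called, against 5.55% of all genes, while 4 had an unadjusted p under 0.05, against 16.4%. Tmem119 was at 20.1, 16.6 and 18.9 CPM in SM and at 21.3, 22.6 and 24.3 CPM in SF, a log2 difference of 0.30 ± 0.071 (SE) with an adjusted p of 0.0884 by limma, and the groups did not overlap, as for 20.4% of all genes. The adjusted p of Tmem119 was 0.0287 by DESeq2, 0.0344 by limma with the replicate block and 0.0388 by limma without SF replicate 1. C1qc was also higher in SF (0.27 ± 0.10, SE), whereas P2ry12 (-0.20 ± 0.081) and Cx3cr1 (-0.19 ± 0.070) were higher in SM. Without SF replicate 1, C1qc was called with a log2 difference of 0.39 and an adjusted p of 0.0442 by limma. All of these comparisons share groups with those above.

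GC content moved with several of these values. Median log2 fold changes of the binned genes, those above 2 CPM, fell from 0.035 in the lowest GC bin to -0.097 in the highest in males. They fell from 0.033 to -0.044 in females, and in SF against SM they rose from -0.051 to 0.25. P2ry12 is in the lowest bin and C1qa and Tmem119 are in the highest. A smooth dependence on GC was then removed from each library, an alternative chosen after seeing the data that covers 15658 genes. All 10 genes then had a male log2 fold change above 0, from 0.024 (Tmem119) to 0.39 (Aif1), against 50.4% of genes. P2ry12 had a value of 0.36 ± 0.070 (SE) with an adjusted p of 0.0133 by limma and a fold just under 1.3, and Cx3cr1 0.29 ± 0.062 with an adjusted p of 0.0187, so that Aif1 was the single gene called, against 5.7% of genes. In females the 10 values ran from 0.083 to 0.30, and 5 had an unadjusted p under 0.05 by limma with an adjusted p of 0.892 (6 with the replicate number as a block, with an adjusted p of 0.769). The SF against SM difference of Tmem119 shrank to 0.095 ± 0.066 (SE), and those of C1qa, Trem2 and Csf1r changed sign. The interactions of P2ry12 (-0.24) and Cx3cr1 (-0.21) then had unadjusted p values of 0.0297 and 0.0330 by limma, with adjusted p values of 0.36 and 0.373.

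**Figure D3:**
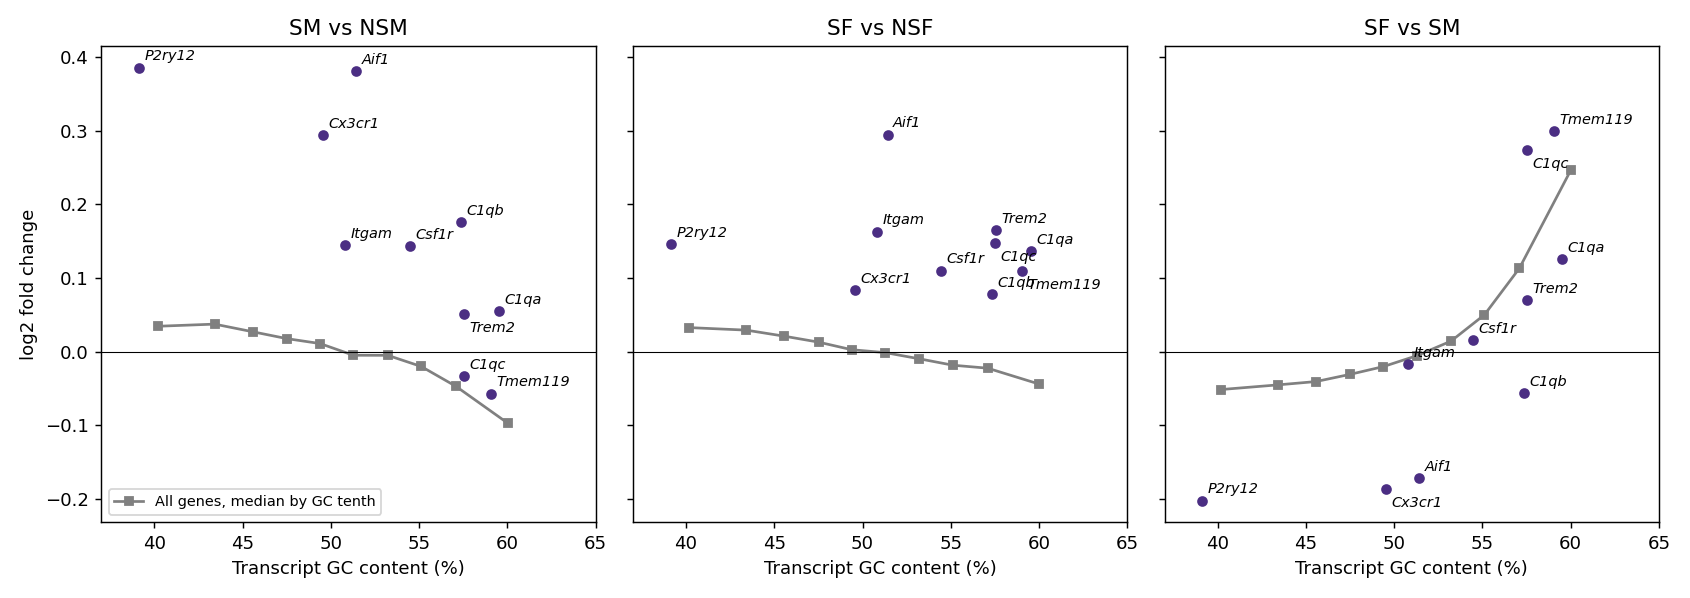
Log2 fold change (y axis) of the 10 genes against the GC content of their longest coding transcript in percent (x axis) in 3 comparisons. Grey squares are medians of genes with a mean above 2 CPM in 10 equal bins of GC content. In SF against SM the grey line rises to 0.25 in the top bin, beside Tmem119 at 0.30, whereas in males P2ry12 at 0.39 lies far above the grey line at 0.035.

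Across the 12 libraries the genes varied together to different degrees, described here without a test because all values share libraries and their GC response. Of the 45 pairs 41 had a positive Pearson correlation of log2 CPM, with a median of 0.48 (0.41 after group means were removed). Cx3cr1 and P2ry12 were most alike (0.97), and C1qb and Itgam (0.88), Csf1r and Itgam (0.87) and Tmem119 and C1qc (0.83) were also close. With group means kept, Tmem119 went least with the others (-0.31 with Cx3cr1, -0.17 with P2ry12). After group means were removed these 2 values were -0.13 and 0.13. C1qa then followed the mean of the other 9 genes least (0.37, against 0.45 for Tmem119 and 0.56 for C1qc). With group means kept, C1qb followed that mean more closely (0.87) than C1qa (0.54) or C1qc (0.39) did, although the C1q genes are neighbours. It also did so after group means were removed (0.89).

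Outside the 10, genes whose log2 CPM correlated closely with their mean over the 12 libraries included Trak2 (0.93), Pigk (0.93), 4632428N05Rik (0.91) and Abca9 (0.90), followed by Cox5b, Kif5b, Fbxl21, Jph1 and Rps10 (each 0.90), which are not microglia markers in the lists used here.

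A further 20 genes that mark microglia were all tested. In males 18 of 20 had a log2 fold change above 0, with a median of 0.23, and 13 had an unadjusted p under 0.05 by limma, all higher, yet none reached a fold of 1.3. Gpr34, a lysophospholipid receptor, was at 13.1, 13.5 and 12.0 CPM in NSM and at 16.9, 17.1 and 14.2 CPM in SM, a log2 fold change of 0.31 ± 0.079 (SE) with an adjusted p of 0.0481 by limma. It was the single gene of the list past that threshold, a count that was 9 by DESeq2, 4 with the replicate block, and 0 with genes of at least 1 read kept, with the 6 male libraries alone, or without any 1 of NSM replicates 2 and 3, SM replicates 1 and 2, NSF replicates 1, 2 and 3 and SF replicate 2. In females 17 of 20 were above 0, with a median of 0.081, and 4 had an unadjusted p under 0.05 by limma. The transcription factors Irf8 (-0.067) and Sall1 (-0.057) were the exceptions in males.

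Ligands and signalling partners of the 10 genes showed no call in either sex. None of 10 had an unadjusted p under 0.05 by limma in males or females. The Cx3cr1 ligand Cx3cl1, the most abundant of them at 900.4 CPM over the 12 libraries, had log2 fold changes of -0.020 in males and 0.043 in females. The Csf1r ligands Csf1 and Il34 had 0.048 and -0.034 in males, and the signalling adaptor of Trem2, Tyrobp, had 0.16 ± 0.11 (SE).

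Other complement genes were mostly low. Of 22 matched genes, 19 were tested, and 1 was called higher and 1 lower in males, with medians of 0.062 in males and 0.017 in females. Cd59a, an inhibitor of the membrane attack complex, was called higher in males at 3.87, 3.11 and 3.59 against 5.51, 5.21 and 4.92 CPM, a log2 fold change of 0.56 ± 0.12 (SE) with an adjusted p of 0.0275 by limma. Properdin (Cfp), which stabilizes the alternative pathway convertase, was called lower, from 7.45, 8.70 and 12.5 to 4.13, 4.36 and 7.91 CPM, with overlap, a log2 fold change of -0.82 ± 0.22 (SE) and an adjusted p of 0.0632. C3, the central component, was at a mean of 0.653 ± 0.239 CPM in NSM and 0.426 ± 0.233 CPM in SM (SD, n = 3), and was not called. Clu, which encodes clusterin, was the most abundant of the list, with a male log2 fold change of 0.12 ± 0.052 (SE).

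Genes of activated microglia gave no call with stress. Of 15 tested, 3 had an unadjusted p under 0.05 by limma in males and none in females, and the most abundant, the lysosomal protease Ctsb, had log2 fold changes of 0.12 in males and 0.026 in females. Among 18 cytokine and Toll-like receptor genes 11 were tested. Il1b, Tnf, Il6, Ccl2 and Il10 had at most 5, 3, 7, 5 and 0 reads in any library, so that a difference was not detectable at this depth. In females 2 of this list were called. Tlr4, the lipopolysaccharide receptor, was at 1.01, 1.04 and 1.34 CPM in NSF and 1.504, 1.64 and 1.84 CPM in SF (log2 fold change 0.56 ± 0.16, SE), and Tnfaip8l2, an inhibitor of Toll-like receptor signalling, was at 1.71, 1.501 and 1.25 against 2.08, 1.98 and 2.43 CPM (0.54 ± 0.15, SE). In these counts both rested on an unadjusted p by limma (0.00405 and 0.00351), with an adjusted p of 0.948. Neither was called in males. The study also measured both genes by quantitative PCR in single mice of a separate cohort. It reports a difference between stressed and unstressed mice for each.

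Markers of macrophages at the brain's borders, which share several of the 10 genes with microglia, were low. The 10 markers summed to between 13.9 and 15.2 CPM in NSM, 15.7 and 17.0 in SM, 15.6 and 18.4 in NSF and 14.8 and 16.1 in SF. Mrc1 (1.59, 1.91 and 1.76 against 2.11, 2.28 and 2.50 CPM) and F13a1 (0.953, 1.24 and 0.690 against 1.31, 1.53 and 1.20 CPM) were called higher in males with adjusted p values of 0.161 and 0.227 by limma. The F13a1 groups overlapped. Cd163, the most abundant of the 10 at 9.64 CPM, had log2 fold changes of 0.11 ± 0.11 in males and -0.33 ± 0.11 in females (SE), the latter with an unadjusted p of 0.00788 and an adjusted p of 0.948 by limma. Red blood cell genes went up in males as well: all 5 tested were called, led by Hbb-b1 at 13.9, 15.8 and 12.4 against 25.7, 22.0 and 22.8 CPM (log2 fold change 0.74 ± 0.10, SE, adjusted p 0.00373), and none was called in females. Oligodendrocyte markers were above 0 in 8 of 8 cases in males, with a median of 0.20 and 2 past an adjusted p of 0.05. Of the leukocyte markers, Ccr2 and Lcn2 were tested, and Lcn2 was called lower in males (log2 fold change -2.31, unadjusted p 0.0324 and adjusted p 0.190 by limma, with overlapping groups). Slc17a7, the glutamate transporter of cortical neurons, was called higher in SM at 39.5, 119 and 162 CPM against 12.0, 4.02 and 16.4 CPM in NSM (log2 fold change 3.29 ± 1.10, SE, adjusted p 0.115 by limma), and the summed cortical markers did not overlap in males. Without NSM replicate 1, the library with high Ttr, Aif1 and P2ry12 were called in males as with it. The part of border macrophages, blood or tissue makeup in the values of the 10 genes was not tested.

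**Figure D4:**
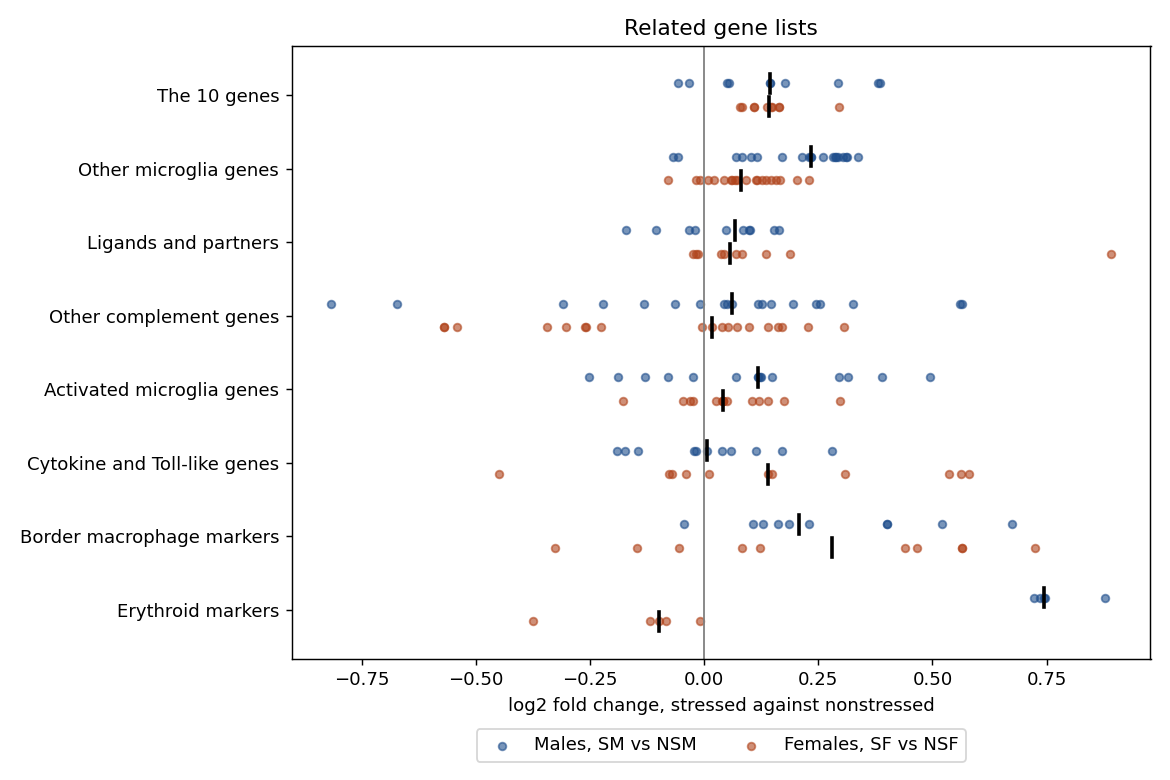
Log2 fold change with stress (x axis) of every tested gene in 8 lists (y axis), males above and females below in each row; points are genes and black lines medians. The 20 other microglia genes have medians of 0.23 in males and 0.081 in females, and the red blood cell genes have medians of 0.74 in males and -0.099 in females.

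The C1q cluster has neighbours that were called while none of its own genes was. Of 5 tested neighbours, Zbtb40, 80.9 kb from the cluster, fell in males from 17.3, 17.8 and 18.8 to 10.2, 10.9 and 11.4 CPM (log2 fold change -0.73 ± 0.12, SE, adjusted p 0.00737 by limma), and Wnt4, 379 kb away, was called higher (0.42 ± 0.15, adjusted p 0.142).

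Small RNA from the same pools was read for microRNAs (miRs) that are known from microglia and other myeloid cells, or that were listed as contrasts. Counts were given per hairpin, so the arm was not resolved. The mature strands below, from RefSeq (GRCm38.p6), are the arms best known for each hairpin discussed, with the seed (bases 2 to 8) in capitals. miR-146a-5p and miR-146b-5p share the seed GAGAACU and so can pair with the same sites.
miR-146a-5p (chr11:43374435-43374456, minus strand): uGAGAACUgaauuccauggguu
miR-146b-5p (chr19:46342790-46342811, plus strand): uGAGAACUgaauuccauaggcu
miR-155-5p (chr16:84714143-84714165, plus strand): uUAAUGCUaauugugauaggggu
miR-21a-5p (chr11:86584120-86584141, minus strand): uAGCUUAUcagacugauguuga
miR-144-3p (chr11:78073047-78073066, plus strand): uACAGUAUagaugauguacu
Of 13 tested miRs 2 were called in males, against 5.2% of the 500 tested miRs, and none in females, against 4.8%. These are counts of hairpins. Some of the 13 are numbered copies of the same miR with near-identical levels, so that fewer than 13 separate miRs were tested. miR-155, known for inflammatory signalling in macrophages, was at 6.54, 4.98 and 4.002 CPM in NSM and 3.86, 3.46 and 3.55 CPM in SM, without overlap, on 21 to 47 reads per library. The log2 fold change was -0.52 ± 0.22 (SE), with an adjusted p of 0.332 by limma. miR-144, a miR of red blood cells, was called higher at 173, 156 and 135 against 258, 207 and 182 CPM (0.47 ± 0.15, SE, adjusted p 0.181). miR-21a (0.22 ± 0.057, SE) and miR-146a (0.17 ± 0.073, SE) had unadjusted p values of 0.00187 and 0.0364 by limma with folds under 1.3, while miR-146b, with the same seed as miR-146a, had 0.077 ± 0.075. None of the 13 had an adjusted p under 0.05 by limma in either sex, while 5 had an unadjusted p under 0.05 in males and 0 in females.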

How the data were processed

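RNA from the same NAc pools was sequenced as mRNA and as small RNA, in 12 libraries each. Per the labels and the study's methods, the authors aligned mRNA reads with TopHat2 to NCBIM37 (mm9) and counted reads per Ensembl gene with HTSeq, and aligned small RNA with Bowtie. The deposited tables hold raw counts, not normalized. The strand setting and what the replicate numbers mark are not given in the sources used here. A gene was kept where 80% or more of a group's libraries held over 5 reads. They were scaled by TMM (edgeR 4.0.16) and fitted with limma 3.58.1 (voom, R 4.3.3), with 1 mean per group over all 12 libraries. Adjusted p values (Benjamini-Hochberg) cover all tested genes or miRs. The scripts were tested on simulated data. The alternatives tried were DESeq2 1.42.0, the quasi-likelihood test of edgeR, other scalings and filters, the 6 libraries of a comparison alone, each library left out, a replicate block and a GC correction.

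The members and gene lists were chosen with earlier results of these data known. All 10 members were named. Of the other lists, called genes, genes with an adjusted p under 0.05 and the most abundant gene were named by rule, together with genes most like the members. Results for some genes that the rule names are not reported here. Irf8, Sall1, Csf1, Il34, Tyrobp, C3, the untested cytokines and the miRs under a fold of 1.3 were named after their values were seen. Deviations of same-numbered NSF and SF libraries from their group means correlated at 0.164, 0.101 and 0.224 across genes. Values for differently numbered libraries are not given here, so whether the numbers pair libraries cannot be told. The main tests used no replicate block. The block changed no member call in females. Nothing in the labels says whether pools came from separate cohorts, so p values measure the spread between pools. RefSeq promoters matched 7 of 10 members.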

Additional observations from a re-analysis of the deposited data

Results flagged for a closer look

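Of 161 tested genes in the gene lists, 16 differed between the sexes in their response to stress by the test of the interaction itself (unadjusted p under 0.05 and 1.3-fold or more), against 4.42% of all tested genes, and none of the 10 members did. The adjusted p values by limma were 0.105 to 0.518, so none passed the correction. Values are the female minus the male log2 fold change.

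All 5 tested red blood cell genes were among them: Alas2 (-1.25), Hba-a1 (-0.73), Hba-a2 (-0.84), Hbb-b1 (-0.83) and Hbb-b2 (-0.86). The hairpin of miR-144, a miR of red blood cells, had an interaction of -0.51, and was the 1 of 13 listed miRs with a difference. Each was higher in SM than in NSM, with a female log2 fold change below 0. Hba and Hbb copies are near-identical, and their counts are uncertain.

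Among complement genes C1ra had -1.13, with log2 fold changes of 0.57 in males and -0.57 in females, and Cd59a had -0.42. C1ra had a mean of only 13.6 reads per library. Neither of its changes was called, with unadjusted p values by limma of 0.101 in males and 0.0943 in females. The border macrophage marker Cd163 had -0.43. Tlr4 had 0.58 and Tnfaip8l2 had 0.48, both with the higher value in females. On the chromosome of the C1q cluster, Zbtb40 (80.9 kb away) had 0.62 and Wnt4 (379 kb away) had -0.60.

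From the list of cortical neuron markers, Slc17a7 had -4.32, Neurod2 -4.65, Neurod6 -5.34 and Tbr1 -3.37. Each had a higher mean log2 level in SM than in NSM and a lower one in SF than in NSF.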

How the results depend on the processing

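Pools of 5 mice, 3 per group, and folds near 1.3 limit the male calls. Main values were 2 members called in males and 0 in the other comparisons. The male count was 1 by edgeR's quasi-likelihood test, 1 after quantile normalization, 1 with genes of at least 1 read kept, 1 with the GC correction, 1 with the GC correction and replicate block, 0 with library size only and 5 without the fold threshold. Same-numbered male libraries correlated at 0.043, 0.052 and 0.503 in their deviations, which does not settle whether the numbers pair them. With the replicate block the male count was 1. The female count stayed at 0. Without the fold threshold 4 members passed in SF against SM. Leaving out 1 library gave 0 to 3 calls in males, 0 to 1 in females and 0 to 1 in SF against SM. The listed miRs called in males numbered 2, but 1 by DESeq2, 1 after quantile normalization, 5 without the fold threshold, 0 by adjusted p and 1 to 2 with a library left out.

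Signs changed for small values (log2). With the GC correction, and then with the block as well, Tmem119 was 0.024 and 0.027 and C1qc 0.027 and 0.020 in SM against NSM. In NSF against NSM Tmem119 was -0.031 and -0.029, C1qa -0.14 and -0.14, C1qb -0.067 and -0.067, and C1qc -0.020 and -0.024. In SF against SM Csf1r was -0.030 and -0.030, C1qa -0.10 and -0.10, and Trem2 -0.071 and -0.072. Csf1r was -0.0090 there after quantile normalization, and Trem2 was -0.00079 in males with library size only. With 1 library left out, the ranges that crossed 0 were, in SM against NSM, -0.11 to 0.029 for Tmem119, -0.011 to 0.11 for C1qa and -0.12 to 0.040 for C1qc. In SF against NSF C1qb ran from -0.011 to 0.15. Interactions ran from -0.23 to 0.027 for Aif1, -0.076 to 0.014 for Csf1r and -0.052 to 0.10 for Itgam. In NSF against NSM the ranges were -0.040 to 0.090 for C1qa, -0.030 to 0.073 for C1qb, -0.011 to 0.16 for C1qc, -0.023 to 0.051 for Cx3cr1, -0.13 to 0.016 for Itgam, -0.021 to 0.064 for P2ry12 and -0.087 to 0.0042 for Trem2. In SF against SM they were -0.15 to 0.019 for C1qb, -0.024 to 0.063 for Csf1r, -0.097 to 0.028 for Itgam and -0.013 to 0.11 for Trem2. The cause was not tested. These counts cover all alternatives for single members except leaving out 1 library, and include fits on the 6 libraries of a comparison alone. Of them 532 kept direction and call, 8 lost a call and 20 changed sign.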
